A study of Mus musculus with 27 samples.

Results

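The genes examined were the clustered histone genes of the mouse, taken as every symbol in the count tables that starts with Hist1h, Hist2h, Hist3h or Hist4h. They numbered 68 of 24000 gene rows and comprised 6 H1, 18 H2A, 19 H2B, 12 H3 and 13 H4 genes. In GENCODE vM21 (build GRCm38), 54 of them lie on chromosome 13, 10 on chromosome 3, 3 on chromosome 11 and 1 on chromosome 6. Of the 68, 24 had at least 10 reads in at least 3 libraries and are described one by one, and the remaining 44 enter only the sums.

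Histones H2A, H2B, H3 and H4 form the core of the nucleosome, and H1, the linker histone, binds where DNA enters and leaves it. The clustered genes supply most new histone protein in S phase, under the transcriptional co-activator NPAT. Their main mRNAs carry no poly(A) tail. They end just after a conserved stem-loop, which is bound by the stem-loop binding protein SLBP and cut by a complex that contains the U7 small nuclear RNA. Some of these genes also give longer transcripts with a poly(A) tail. Selection of polyA RNA, as used here, is meant to keep the tailed forms, so the level of a clustered histone gene in such a library is not its total mRNA.

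All RNA was from Ba/F3, a pro-B cell line of the mouse that grows only with the cytokine interleukin 3 (IL3). Untreated cells were kept without IL3 for 6 h (wtBaFminus, n = 5), or for 6 h and then with 10 ng/mL IL3 for 30 min (wtBaFplus, n = 5). The other groups were transduced with a lentivirus that expresses a short hairpin RNA, kept in puromycin, and given the same 6 h without and 30 min with IL3. Their hairpins had no target (shNTplus, n = 5) or targeted STAT5A (shSTAT5Aplus), STAT5B (shSTAT5Bplus), the histone demethylase LSD1 (shLSD1plus) or the histone deacetylase HDAC3 (shHDAC3plus), with n = 3 each. The IL3 receptor switches on STAT5A and STAT5B, which are transcription factors. Every hairpin group had thus been stimulated with IL3, and shNTplus differs from wtBaFplus in the virus and the puromycin as well as in the hairpin. Libraries of 1 group are labelled as biological replicates and no cultures are named, so p-values measure the spread between these libraries, which may in part be technical.

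A library had 5.48 to 33.8 M counted reads, with a median of 15.5 M. Levels are given as counts per M reads (CPM), scaled by library factors. Each targeted gene was lower in all libraries of its knockdown than in all shNTplus libraries, and each was called (adjusted p of 9.8e-07 to 0.0130, edgeR). Stat5a stood at 23.7 to 27.5 CPM in shSTAT5Aplus against 50.5 to 92.0 in shNTplus, and Stat5b at 29.3 to 36.01 in shSTAT5Bplus against 95.3 to 133.8. Kdm1a, which encodes LSD1, stood at 55.4 to 102.6 CPM against 129.3 to 156.2, and Hdac3 at 44.8 to 83.9 against 98.0 to 156.2. Of 12 B-lineage markers, 10 had a mean under 1 CPM, Pax5 among them, whereas Cd79a stood at 24.2 to 70.8 CPM. Some libraries stood apart, in sets that mix groups. In 5 libraries (shHDAC3plus 1 and 2, shLSD1plus 1, shNTplus 1 and 3), 14.2 to 25.1% of reads lay outside genes, against 8.82 to 12.1% elsewhere. In 4 libraries (wtBaFminus 2, wtBaFplus 2, shSTAT5Aplus 3, shSTAT5Bplus 2), only 0.177 to 0.190 reads were multi-mapped for each read counted, against 0.200 to 0.295 elsewhere.

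The 3′ end of a histone gene decides whether its RNA can be caught by its tail, so the annotated ends of the members were searched first. A 16-letter histone 3′ stem-loop was found in the annotated transcripts of 46 of the 68 members and of 5 of 21810 other protein-coding genes (0.0229%). It had 8 forms. The commonest, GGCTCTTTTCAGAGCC, stood in 26 members of the H1, H2A, H2B and H3 families. The H4 genes had forms of their own, with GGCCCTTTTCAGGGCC in 7 of them. The stem-loops of 5 members are printed with 5 bases on either side, from 5′ to 3′ of the mRNA strand and with the stem-loop in capitals. They belong to the H1 gene with most reads (chr13:23739507-23739532, plus strand), the H4 gene with most reads (chr13:22040961-22040986, minus), and 3 genes with few reads: an H2A gene (chr13:22042478-22042503, minus), an H3 gene (chr13:23535884-23535909, plus) and an H4 gene (chr13:23757361-23757386, plus).
Hist1h1c: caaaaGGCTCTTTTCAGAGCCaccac
Hist1h4i: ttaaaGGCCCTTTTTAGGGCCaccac
Hist1h2ag: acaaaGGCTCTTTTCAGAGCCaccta
Hist1h3g: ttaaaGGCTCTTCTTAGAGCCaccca
Hist1h4b: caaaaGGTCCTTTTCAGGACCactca

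In Hist1h1c the annotated transcript runs on for 840 bases after the stem-loop and in Hist1h4i for 330 bases. In Hist1h2ag it stops 23 bases after the stem-loop, in Hist1h3g 47 and in Hist1h4b 28. A poly(A) signal was read as AATAAA or ATTAAA in the last 40 bases of a transcript. It stood in 15 of the 68 members (22.1%), each read on a single chosen transcript. In other protein-coding genes the share was 76.2%, but there a gene counted when any of its transcripts had the signal. The shares were thus measured differently, and no difference is read from them. The last 30 bases of 4 members with that signal are shown with the signal in capitals. They are Hist1h1c (chr13:23740338-23740367, plus), the H2B gene Hist2h2be (chr3:96223709-96223738, plus), Hist1h4i (chr13:22040636-22040665, minus) and the H2A gene Hist1h2ae (chr13:23570517-23570546, minus).
Hist1h1c: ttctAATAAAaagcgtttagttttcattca
Hist2h2be: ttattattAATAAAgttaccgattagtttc
Hist1h4i: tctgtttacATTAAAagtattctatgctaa
Hist1h2ae: ccAATAAAtgggtcaatttttttcagattc

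The clustered histone genes held few reads, and most of those fell in Hist1h1c and Hist2h2be. Over all libraries the 68 members had 41978 reads, with 621 to 4872 in a library (median 1224), which was 0.00575 to 0.0177% of the reads counted. Between 31 and 62 members had a read in a given library. Hist1h1c, a linker histone gene, had 14270 reads (34.0%) and Hist2h2be, a core H2B gene, 14612 (34.8%). Together they took 43.3 to 80.6% of the histone reads of a library, with a median of 71.6%. The 15 members with a poly(A) signal held 80.1% of all histone reads. The 23 members whose transcript stops less than 100 bases after the stem-loop held 4.30%. Another 23 members with 100 or more bases after it held 50.6%. The 22 members in which no stem-loop was found, Hist2h2be among them, held 45.1%. Most of the 80.1% came from Hist1h1c and Hist2h2be, which both have the signal. The median level per length, which divides by exon length, was no higher with the signal (0.219 CPM per kb of exon) than without it (0.271).

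Per length, Hist1h1c led with a mean level of 23.6 CPM per kb of exon, followed by Hist2h2be at 13.6, the H2A gene Hist1h2af at 6.41, Hist1h4i at 6.16 and the H2B gene Hist1h2bc at 3.48. By family, H2B held 41.9% of the reads, H1 38.2%, H2A 10.1%, H4 6.95% and H3 2.82%. The copies of a family are close to each other in sequence, which limits what a count can say about 1 of them. In 34 members at most 50% of the 50-base windows of the transcripts occur in no other gene, and these members held 8.83% of the reads. Hist1h2af had 6.00% of such unique windows and Hist1h2ag 21.1%, against 91.5% in Hist1h1c and 100% in Hist2h2be. Hist2h3c1, an H3 gene, and Hist2h2bb, an H2B gene, had none, so their reads could be those of another copy. The 5 members without a read (Hist1h2ap, Hist1h2ao, Hist1h2br, Hist1h2bq and Hist2h2aa1) had 0 to 11.3% unique windows.

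**Figure D1:**
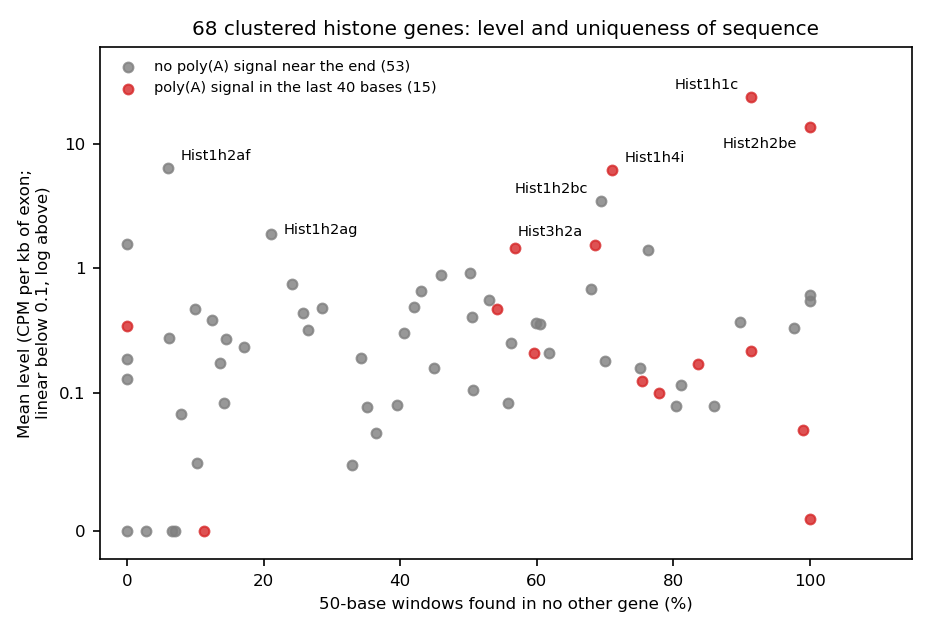
Each point is 1 of the 68 clustered histone genes: its mean level over 27 libraries (vertical axis, CPM per kb of exon, linear below 0.1 and logarithmic above) against the share of its 50-base windows found in no other gene (horizontal axis, %). Hist1h1c (23.6) and Hist2h2be (13.6) lie at the top right, both with a poly(A) signal near the end (red), and Hist1h2af (6.41) stands at the left with 6.00% unique windows.

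Summed over the 68 members, the level differed as much within groups as between most of them. The sums were 73.1, 73.2, 118.8, 61.7 and 74.6 CPM in wtBaFminus and 144.3, 63.6, 84.6, 74.9 and 67.2 CPM in wtBaFplus. In shNTplus they were 100.5, 109.7, 141.6, 125.2 and 147.0 CPM. The knockdown libraries had 124.0, 117.3 and 61.3 CPM for STAT5A, 171.4, 67.4 and 131.5 for STAT5B, 153.7, 117.4 and 102.6 for LSD1, and 77.3, 109.4 and 104.7 for HDAC3. The ranges of all the IL3-stimulated groups overlapped, and that of wtBaFminus overlapped each of them. Means ± SD were 80.3 ± 22.1 CPM in wtBaFminus, 86.9 ± 33.1 in wtBaFplus and 124.8 ± 19.9 in shNTplus (n = 5 each). With n = 3, they were 100.9 ± 34.4 in shSTAT5Aplus, 123.4 ± 52.5 in shSTAT5Bplus, 124.6 ± 26.3 in shLSD1plus and 97.1 ± 17.3 in shHDAC3plus. As a description, the log2 ratio of the group means was 0.12 for wtBaFplus over wtBaFminus and 0.52 for shNTplus over wtBaFplus. It was −0.31 for shSTAT5Aplus, −0.02 for shSTAT5Bplus, 0.00 for shLSD1plus and −0.36 for shHDAC3plus, each over shNTplus. Over single libraries left out, the ranges were −0.145 to 0.30 for IL3, 0.43 to 0.78 for shNTplus over wtBaFplus, −0.48 to −0.049 for STAT5A, −0.33 to 0.28 for STAT5B, −0.18 to 0.12 for LSD1 and −0.46 to −0.22 for HDAC3. The direction for IL3, STAT5B and LSD1 thus depended on single libraries. Without Hist1h1c and Hist2h2be, the ratio was −0.36 for IL3, −0.047 for shNTplus over wtBaFplus, 0.14 for STAT5A and 0.41 for STAT5B, each of the opposite sign. It was −0.028 for LSD1 and −0.20 for HDAC3. In this smaller sum, wtBaFminus replicate 3 stood at 67.4 CPM, against 27.3 to 32.8 in the rest of its group. Replicate 3 of shSTAT5Bplus stood at 53.8 CPM, against 35.7 and 24.3 in replicates 1 and 2. The ratios for IL3 and STAT5B thus lean on single libraries, and no range over libraries left out is given for this sum. In RNA from whole cultures, fewer cells that express a histone gene and less of its RNA in each cell cannot be told apart.

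The 4 libraries with few multi-mapped reads had sums of 61.3 to 73.2 CPM. The 2 untreated libraries among those 4, at 63.6 and 73.2 CPM, lay within the range of the other 8 untreated ones (61.7 to 144.3 CPM). The 2 hairpin libraries among the 4, at 61.3 and 67.4 CPM, lay below all other hairpin libraries (77.3 to 171.4 CPM). The part of the library property in this difference between hairpin libraries was not tested.

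**Figure D2:**
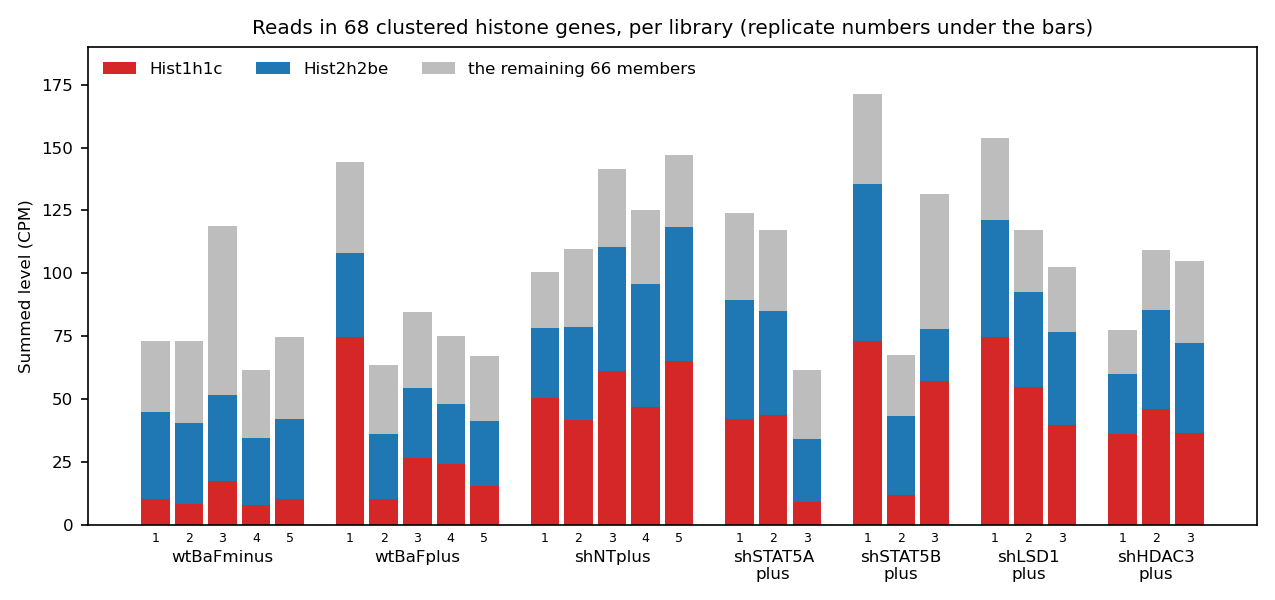
Bars give the summed level of the 68 genes in each of the 27 libraries (CPM), divided into Hist1h1c (red), Hist2h2be (blue) and the remaining 66 genes (grey), by group with the replicate number below each bar. The red part is 7.70 to 17.3 CPM in wtBaFminus and 36.1 to 74.8 CPM in the hairpin libraries other than shSTAT5Aplus 3 (9.07) and shSTAT5Bplus 2 (11.7), and the grey part of wtBaFminus replicate 3 is 67.4 CPM.

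Of the linker histone genes, Hist1h1c (ENSMUSG00000036181.2, chr13:23738808-23740367, plus strand, 1 exon) had the highest mean level. Its level in wtBaFminus was 10.0, 8.05, 17.3, 7.70 and 10.0 CPM. In wtBaFplus it was 74.5, 10.4, 26.4, 24.3 and 15.5 CPM. The deprived libraries were low, with replicate 3 above the other 4, and 3 of the 5 stimulated ones lay above all of them, with replicate 1 the highest. With the no-target hairpin Hist1h1c reached 50.5, 41.7, 61.2, 46.9 and 65.2 CPM. It was 41.9, 43.7 and 9.07 CPM with the STAT5A hairpin, 73.2, 11.7 and 57.0 with STAT5B, 74.8, 54.8 and 39.4 with LSD1, and 36.1, 45.8 and 36.5 with HDAC3. The 2 low values among the knockdowns, 9.07 and 11.7 CPM, were those of the libraries with few multi-mapped reads.

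Group means ± SD were 10.6 ± 3.88 CPM in wtBaFminus, 30.2 ± 25.6 in wtBaFplus and 53.1 ± 9.85 in shNTplus. In the same numbered pair, the wtBaFplus library exceeded the wtBaFminus library 7.44-, 1.29-, 1.53-, 3.16- and 1.54-fold, so Hist1h1c was higher after IL3 in 5 of 5 pairs. The log2 fold change was 1.51 ± 0.47 (SE), with an adjusted p of 0.0779 by edgeR's quasi-likelihood test over all genes, which is short of the 0.05 used here. Wild-type libraries of the same number deviated together, and once replicate numbers entered as a block the change was 1.28 ± 0.36 with an adjusted p of 0.0408. Hist1h1c also passed by DESeq2 (1.50, adjusted p = 0.0217). It passed by edgeR without the 4 libraries with few multi-mapped reads (1.64, adjusted p = 0.0190), a setting chosen after seeing the data. That setting drops wtBaFplus replicate 2, the lowest stimulated library for this gene (10.4 CPM). It is thus no separate support for the change. Leaving out wtBaFplus replicate 1 lowered the change to 0.86 (adjusted p = 0.349), and leaving out wtBaFplus replicate 2 gave 1.74 (adjusted p = 0.0437). Over the 19 alternatives run the change was 0.86 to 1.77, always positive, and the adjusted p 0.0190 to 0.349.

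The other linker histone genes were lower in level. Hist1h1d, a somatic H1 gene annotated with 1 exon of 7425 bases, stood at 0.58, 0.62, 2.00, 0.68 and 0.77 CPM in wtBaFminus and at 3.35, 0.46, 1.57, 1.24 and 1.00 in wtBaFplus. It was 2.43, 2.49, 7.48, 3.45 and 3.17 CPM in shNTplus, 3.32, 2.52 and 0.71 in shSTAT5Aplus and 4.16, 0.61 and 2.76 in shSTAT5Bplus. The values were 6.70, 2.00 and 2.11 CPM in shLSD1plus and 3.10, 4.93 and 2.46 in shHDAC3plus. As for Hist1h1c, the 4 libraries with few multi-mapped reads were low (0.46 to 0.71 CPM), and the deprived libraries other than replicate 3 were under 1 CPM. Hist1h1e, which shares its strand with an overlapping Hist1h2be transcript, ranged from 0.52 to 2.49 CPM over all libraries, and the S-phase H1 gene Hist1h1b from 0 to 1.46 CPM. H1f0, a linker histone gene outside the clusters whose mRNA is polyadenylated, was far more abundant. Its level was 471.5 to 611.6 CPM in wtBaFminus, 595.5 to 852.2 in wtBaFplus and 805.9 to 1149 in shNTplus. In wtBaFminus 2, wtBaFplus 2, shSTAT5Aplus 3 and shSTAT5Bplus 2, the libraries with few multi-mapped reads, H1f0 was 471.5, 595.5, 563.6 and 474.8 CPM. Each was the lowest value of its group. H2afz, the H2A.Z gene, was the highest of its group in the same libraries (1330, 1237, 1390 and 1070 CPM). The log2 fold change of H1f0 was 0.43 ± 0.18 in wtBaFplus over wtBaFminus (adjusted p = 0.263, edgeR) and 0.48 ± 0.18 in shNTplus over wtBaFplus (adjusted p = 0.237), neither of which passed.

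Hist1h1c and Hist1h1d were low in the same libraries, though this was not particular to them, and the study concerns STAT5. The bases before the start sites of Hist1h1c and Hist1h1d were therefore read from RefSeq (GRCm38.p6). Any link between these bases and the levels was not tested. Both strands were searched for CCAAT, for the TATA box as TATAAA, for the H1 box as AAACACA, for the octamer as ATTTGCAT, and for the core of STAT sites as TTCNNNGAA. Each search covered a window from 250 bases before to 50 after the start. RefSeq starts Hist1h1d downstream of its GENCODE start. Matches are shown in capitals in the 250 bases before the start of Hist1h1c (chr13:23738557-23738806, plus) and Hist1h1d (chr13:23554782-23555031, plus).
Hist1h1c: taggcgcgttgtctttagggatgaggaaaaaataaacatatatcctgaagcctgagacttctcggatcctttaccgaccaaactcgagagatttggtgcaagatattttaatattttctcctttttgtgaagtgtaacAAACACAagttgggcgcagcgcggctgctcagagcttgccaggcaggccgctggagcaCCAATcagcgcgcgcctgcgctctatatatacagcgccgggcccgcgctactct
Hist1h1d: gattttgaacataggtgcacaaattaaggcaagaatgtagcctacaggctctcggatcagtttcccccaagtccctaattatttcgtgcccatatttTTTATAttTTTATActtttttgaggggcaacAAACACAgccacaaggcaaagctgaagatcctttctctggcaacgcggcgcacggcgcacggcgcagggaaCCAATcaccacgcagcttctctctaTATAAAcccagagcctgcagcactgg

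AAACACA began 112 bases before the start in Hist1h1c and 122 in Hist1h1d, and CCAAT 54 and 51 bases before it, and no match overlapped another. Neither window held TTCNNNGAA. Of the 68 members, 62 had a RefSeq promoter. CCAAT stood in 85.5% of those against 37.4% of all promoters, TATAAA in 56.5% against 13.6%, AAACACA in 14.5% against 7.18%, and ATTTGCAT in 22.6% against 1.74%. TTCNNNGAA stood in 3 of the 62 (4.84%) against 8.30% of all promoters. These are matches of letters in a window, not measured binding.

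**Figure D3:**
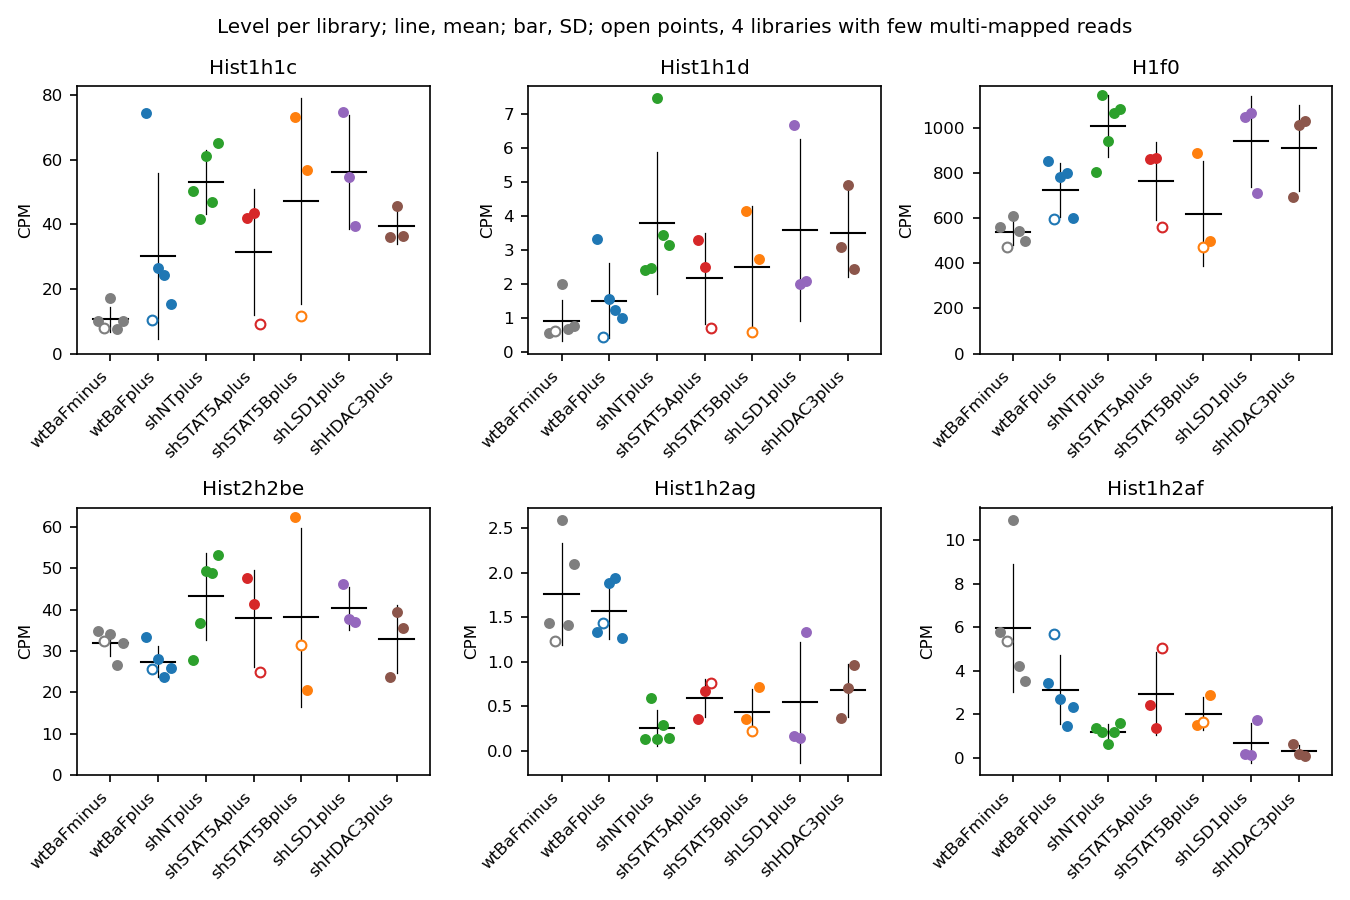
Points give the level of 6 genes in each library (CPM, vertical axes starting at or below 0) by group; lines are group means, bars SD, and open points the 4 libraries with few multi-mapped reads. Hist1h1c and Hist1h1d are low in the wtBaFminus group and in the open points, H1f0 is at 471.5 CPM or more throughout, and Hist1h2ag is at 0.13 to 0.59 CPM in shNTplus against 1.27 to 1.94 in wtBaFplus.

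Of the core histone genes, the H2B gene Hist2h2be (chr3:96221119-96223738, plus strand) had the steadiest level. It was 34.8, 32.4, 34.1, 26.7 and 31.8 CPM in wtBaFminus and 33.4, 25.6, 28.1, 23.7 and 25.8 in wtBaFplus. The stimulated library was the lower one in 5 of 5 pairs, at 0.791 to 0.961 times the deprived one, but the groups overlapped. The log2 fold change was −0.22 ± 0.23 (adjusted p = 0.717, edgeR), and with the replicate block −0.22 ± 0.07 (adjusted p = 0.0597). In shNTplus Hist2h2be stood at 27.8, 36.8, 49.4, 48.8 and 53.3 CPM. That was 0.66 ± 0.23 above wtBaFplus on the log2 scale (adjusted p = 0.223). The knockdown libraries had 47.6, 41.3 and 24.8 CPM for STAT5A, 62.4, 31.4 and 20.6 for STAT5B, 46.2, 37.6 and 37.1 for LSD1, and 23.7, 39.5 and 35.7 for HDAC3, and every knockdown group overlapped shNTplus.

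The second H2B gene by level, Hist1h2bc, varied more than Hist2h2be. Its values were 2.27, 2.27, 6.39, 1.79 and 2.52 CPM in wtBaFminus, 3.50, 1.43, 3.04, 2.33 and 1.32 in wtBaFplus, and 1.49, 5.21, 3.29, 6.90 and 4.39 in shNTplus. In the knockdowns they were 4.50, 6.62 and 2.46 CPM (STAT5A), 8.79, 2.86 and 9.004 (STAT5B), 4.74, 6.06 and 2.84 (LSD1), and 2.61, 2.47 and 7.56 (HDAC3). No group stood clear of the rest. Hist1h2be, which overlaps Hist1h1e, lay between 0.21 and 1.34 CPM in all libraries. Its lowest value was that of shLSD1plus replicate 2, and the 3 shLSD1plus libraries (0.65, 0.21 and 0.50 CPM) lay below the 3 shHDAC3plus libraries (0.87, 0.88 and 0.79 CPM).

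The H2A genes, whose product pairs with H2B in the nucleosome, were read next. Summed over the 18 H2A genes, the level was 12.3 to 26.0 CPM in wtBaFminus, 8.71 to 12.6 in wtBaFplus and 5.15 to 7.58 in shNTplus, so the sum in shNTplus did not overlap that in wtBaFplus. The sum carries no test, and the members differed: of the 5 tested, Hist3h2a had a positive log2 fold change in shNTplus over wtBaFplus (0.25 ± 0.37) and the others negative ones. Hist1h2af, the H2A gene with the highest level per length, was 5.76, 5.36, 10.9, 4.19 and 3.50 CPM in wtBaFminus and 3.44, 5.67, 2.69, 1.47 and 2.32 in wtBaFplus. It was 1.35, 1.18, 0.63, 1.19 and 1.58 CPM in shNTplus, 2.43, 1.34 and 5.05 in shSTAT5Aplus and 1.52, 1.65 and 2.88 in shSTAT5Bplus. The values were under 1 CPM in 2 of 3 shLSD1plus libraries (0.16, 0.14 and 1.74) and in 3 of 3 shHDAC3plus libraries (0.62, 0.18 and 0.09).

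Hist1h2ag was under 1 CPM in all hairpin libraries except shLSD1plus replicate 3. It stood at 1.44, 1.24, 2.60, 1.42 and 2.10 CPM in wtBaFminus and 1.33, 1.43, 1.88, 1.94 and 1.27 in wtBaFplus. In shNTplus it was 0.14, 0.59, 0.13, 0.28 and 0.14 CPM, which rests on 14 reads in all against 158 in wtBaFplus. The ratio of pooled reads was 0.165 (95% exact interval 0.0884 to 0.286, counting error only). In the fit the log2 change was −2.58 ± 0.52, but the adjusted p of 0.0806 did not pass (edgeR). It passed by DESeq2 (−2.61, adjusted p = 0.00426) and when only shNTplus and wtBaFplus were fitted (−2.57, adjusted p = 0.0227). The knockdowns had 0.36, 0.67 and 0.76 CPM (STAT5A), 0.35, 0.22 and 0.72 (STAT5B), 0.16, 0.14 and 1.33 (LSD1), and 0.37, 0.70 and 0.97 (HDAC3).

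Hist3h2a, an H2A gene on chromosome 11 that overlaps Trim17 on its strand, kept a narrower range. Its level was 2.94, 1.72, 4.11, 2.96 and 3.15 CPM in wtBaFminus, 5.27, 2.22, 2.06, 2.56 and 2.38 in wtBaFplus, and 3.92, 3.44, 4.18, 2.15 and 3.89 in shNTplus. The knockdowns had 1.65 to 9.60 CPM, with the highest value in shSTAT5Bplus replicate 3. Hist1h2ae was 1.22, 1.99, 1.79, 1.29 and 1.47 CPM in wtBaFminus, 1.10, 1.50, 1.88, 1.24 and 0.95 in wtBaFplus, and 0.54, 0.71, 0.13, 0.74 and 0.43 in shNTplus. With the STAT5A hairpin it was 1.54, 0.92 and 1.28 CPM, above every shNTplus library. Hist1h2aa, a gene known from the testis, was near 0 in replicates 1 and 2 of both untreated groups and present in the others. It was 0.03, 0, 3.95, 1.17 and 1.82 CPM in wtBaFminus and 0.03, 0, 1.34, 0.78 and 0.79 in wtBaFplus.

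Among the H3 and H4 genes, Hist1h4i was the one with most reads. It stood at 2.85, 4.19, 6.33, 2.96 and 3.57 CPM in wtBaFminus, 4.74, 3.13, 4.30, 2.72 and 4.28 in wtBaFplus, and 2.57, 6.99, 3.80, 5.94 and 4.32 in shNTplus. Its knockdown values were 7.11, 5.28 and 5.10 CPM (STAT5A), 5.04, 5.23 and 8.52 (STAT5B), 4.90, 4.62 and 3.99 (LSD1), and 1.12, 2.99 and 4.39 (HDAC3). No group was apart from all the others. Both STAT5 knockdowns lay above wtBaFplus, shLSD1plus and shHDAC3plus, but overlapped shNTplus and wtBaFminus. The gap was small (5.04 CPM in shSTAT5Bplus against 4.90 in shLSD1plus). The share of all genes with such a gap was not counted, so no result is read from it. Hist2h3c1, an H3 gene, was 0.32, 0.28, 0.11, 0.12 and 0.21 CPM in wtBaFminus and 0.77, 0.39, 0.72, 0.62 and 0.42 in wtBaFplus, without overlap. Its log2 fold change was 1.44 ± 0.56 (adjusted p = 0.188, edgeR). Hist1h3g was nearly absent with the HDAC3 hairpin, with 1 read in all 3 libraries against 27 in the 5 shNTplus libraries. The ratio of pooled reads was 0.0815 (95% exact interval 0.00199 to 0.495), and the adjusted p of 0.309 did not pass. The 3 shHDAC3plus libraries had depths of 7.48, 5.48 and 12.2 M reads, and a count of 0 allowed up to 3 reads, or 0.372, 0.528 and 0.264 CPM in these libraries. The shNTplus values of Hist1h3g, 0.27 to 0.65 CPM, lie partly within those limits.

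**Figure D4:**
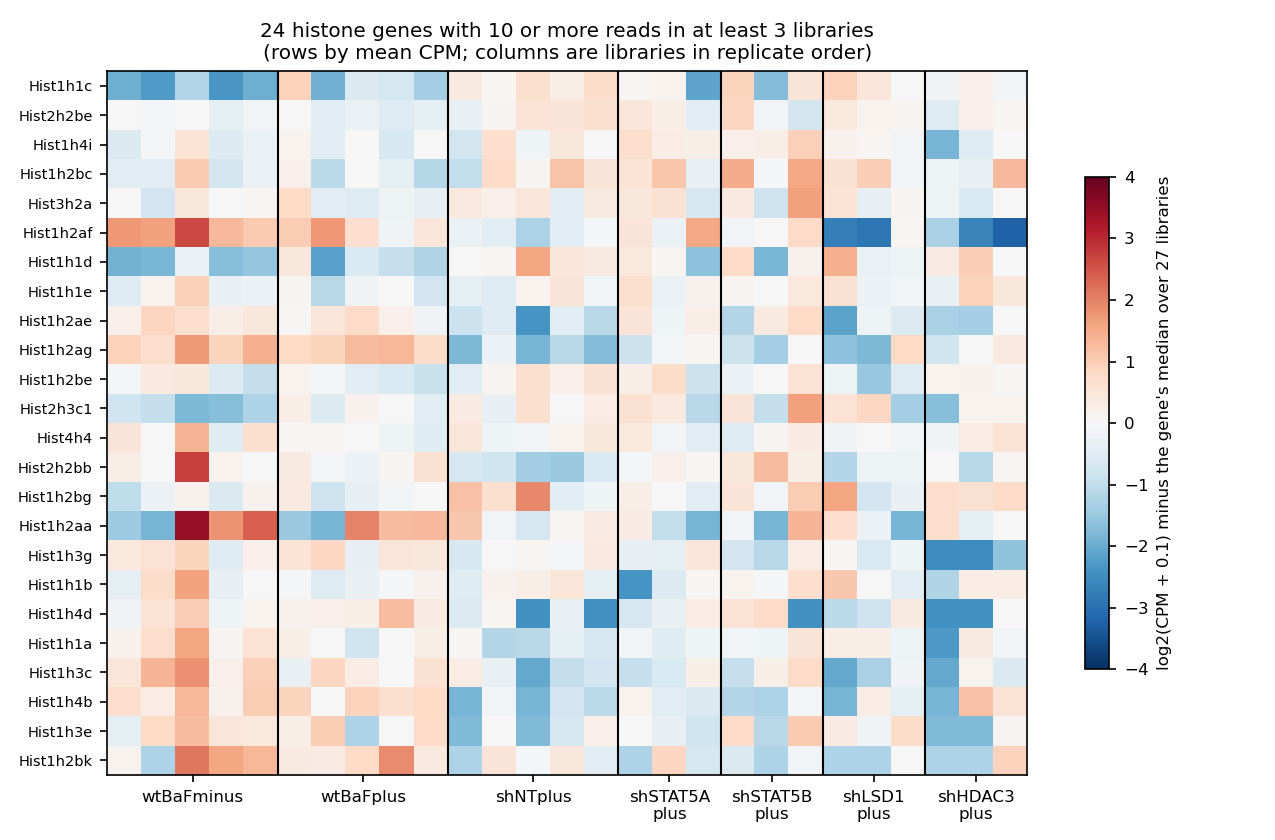
Each row is 1 of the 24 genes with at least 10 reads in at least 3 libraries and each column 1 of the 27 libraries; colour gives log2(CPM + 0.1) minus the gene's median over the libraries. The third wtBaFminus column is red in most rows, Hist1h1c and Hist1h1d are blue in wtBaFminus, and Hist1h2ag is red in both wild-type groups.

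The effect of IL3 was read from wtBaFplus against wtBaFminus. By edgeR, 0 of the 20 members with enough reads to be tested passed an adjusted p of 0.05, against 3.82% of the 12073 genes tested. At an unadjusted p under 0.05 there were 4 members (Hist1h1c, Hist2h3c1, Hist2h2bb and Hist4h4), against 14% of all genes, and DESeq2 called only Hist1h1c. With the replicate block, 2 of 13 members tested passed, against 22.4% of 11195 genes (13.3% higher, 9.09% lower): Hist1h1c, and Hist1h2aa at −1.20 (adjusted p = 0.0229). The groups did not overlap for 1 member that was higher, Hist2h3c1 (6.73% of all genes), and for 0 that were lower (4.51%). The median log2 fold change of the 20 was −0.22, with 6 above 0, beside −0.02 over all genes. Without wtBaFminus replicate 3 the median was 0.09 over the 19 members then tested, and the change of Hist2h2bb went from −1.06 to 0.092. Within wtBaFminus, replicate 3 was the highest library for 16 of the 20 members (80%), against 35.0% of all genes. Of all libraries, this one had the lowest library factor (0.852) and the most multi-mapped reads per counted read (0.295). The part of these properties in its histone values was not tested.

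Whether the hairpin cells differed from the untreated cells was read from shNTplus against wtBaFplus. No member passed by edgeR (0 of 20), as for all genes (0%). There were 7 members with an unadjusted p under 0.05, a share of 35% beside 16.9% of all genes, and DESeq2 called 1, Hist1h2ag. Among those 7, the H2A genes Hist1h2ae (−1.34), Hist1h2af (−1.37) and Hist1h2ag (−2.58), the H4 gene Hist1h4d (−1.55) and the H2B gene Hist2h2bb (−1.46) had negative log2 fold changes. Hist1h1d (1.27) and Hist2h2be (0.66) had positive ones. Hist1h1c, at 0.81 ± 0.46, had an adjusted p of 0.356. Another count is that of members without overlap: 4 (Hist1h2ae, Hist1h2ag, Hist1h4d and Hist2h2bb) lay wholly below wtBaFplus, against 3% of all genes, and 0 lay wholly above it (2.35%). In the same comparison the 4 erythroid markers summed to 67.5 to 145.8 CPM in wtBaFplus and 25.8 to 60.5 in shNTplus, nearly all of it Klf1, a transcription factor. The haemoglobin genes Hbb-bs and Hba-a1 had no reads. The part of this difference in the histone values was not tested.

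In the STAT5A knockdown against shNTplus, 0 of 20 members passed by edgeR (0.0663% of all genes). Hist1h2ae (1.25 ± 0.47) and Hist1h2af (1.30 ± 0.57) had an unadjusted p under 0.05, 10% of members against 8.42% of genes. Hist1h2ae and Hist2h2bb lay wholly above shNTplus (2.53% of genes) and 0 members wholly below (2.28%). In the STAT5B knockdown, 0 of 20 passed (0.34% of genes), and 2 had an unadjusted p under 0.05 (15.9% of genes): Hist1h2ae at 1.18 ± 0.49 and Hist2h2bb at 2.10 ± 0.66, with adjusted p of 0.270 and 0.173. Hist2h2bb alone lay wholly above shNTplus (2.91% of genes), and 0 members lay wholly below (2.82%). The STAT5A and STAT5B knockdowns share the shNTplus libraries, so Hist1h2ae and Hist2h2bb, each named in both, are not seen there independently. Set against each other directly, they gave 0 members that passed (0.0248% of genes) and 0 with an unadjusted p under 0.05 (3.39%), with a median log2 difference of −0.36 over the 20 members, beside −0.001 over all genes. That median was 0.19 over 24 members without shSTAT5Bplus replicate 3, so 1 library set its direction. Hist2h2bb was lower with the STAT5A hairpin without overlap (3.68% of genes), and 0 members were higher (3.4%). By DESeq2, too, no member passed in any of these 3 comparisons. The 8 myeloid markers, 4 of them under 1 CPM on average, summed to 58.5 to 135.9 CPM in shNTplus, 110.9 to 361.6 in shSTAT5Aplus, 152.6 to 546.2 in shSTAT5Bplus and 272.1 to 384.2 in shLSD1plus, and their part in the histone values was not tested.

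In the LSD1 knockdown against shNTplus, 0 of 20 members passed by edgeR (0.166% of genes). The members with an unadjusted p under 0.05 (6.71% of genes) were Hist1h2ag at 1.27 ± 0.61 and Hist1h2be at −1.14 ± 0.49. The first came from 1 library, since without shLSD1plus replicate 3 its change was −0.77. No member was clear of shNTplus in either direction, against 1.71% of genes above and 1.09% below. In the HDAC3 knockdown, 0 of 20 passed (0.0248% of genes). An unadjusted p under 0.05 (5.69% of genes) was found for 3: Hist1h3g at −3.37 ± 0.81, Hist1h2af at −2.04 ± 0.82 and Hist1h2ag at 1.42 ± 0.64. Without the limits for a count of 0, Hist1h3g and Hist1h2af lay below shNTplus (1.59% of genes), and 0 members above (0.861%). With those limits, Hist1h3g could not be told apart from shNTplus by overlap. For Hist1h2af the gap was very small, with shHDAC3plus replicate 1 just below shNTplus replicate 3. Its values in shHDAC3plus replicates 2 and 3 were below the limit of 3 counts, so this separation rests on few reads. By DESeq2, 0 members passed in either knockdown. For Hist1h2af the pooled reads were 7 against 68, a ratio of 0.227 (95% exact interval 0.0878 to 0.493).

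Set against each other, LSD1 and HDAC3 knockdown gave 0 members that passed by edgeR or DESeq2, although 0.82% of genes did by edgeR. Only Hist1h3g had an unadjusted p under 0.05 (14.2% of genes), with a log2 difference of 3.05 ± 0.87 and an adjusted p of 0.107. Its values were higher in shLSD1plus without overlap (5.69% of genes), but the limits for a count of 0 in shHDAC3plus reach into them. Hist1h2be was lower without overlap (4.82%). The median log2 fold change of the 20 members was −0.09 with LSD1 and −0.15 with HDAC3 knockdown, each over shNTplus, beside −0.02 and 0.00 over all genes. The HDAC3 median turned to 0.25 over 24 members without shHDAC3plus replicate 1. It turned to 0.31 over 26 members when the 5 libraries rich in reads outside genes were dropped. The LSD1 median turned to 0.048 over 63 members without a filter on low counts, and to 0.11 over 6 members with the replicate block. The members tested thus differ between these settings. The 5 libraries with many reads outside genes include 2 of the 3 shHDAC3plus libraries and 1 of the 3 shLSD1plus libraries, so only 1 shHDAC3plus library remains without them.

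The level of Hist1h1c did not follow multi-mapped reads in a single line. Of the 9 libraries with fewest multi-mapped reads, the 4 lowest had 8.05 to 11.7 CPM. The other 5, which are those with many reads outside genes (0.200 to 0.219), had 36.1 to 74.8 CPM. In the remaining 18 libraries, the 10 from hairpin cells had 36.5 to 73.2 CPM and the 8 untreated ones 7.70 to 74.5.

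**Figure D5:**
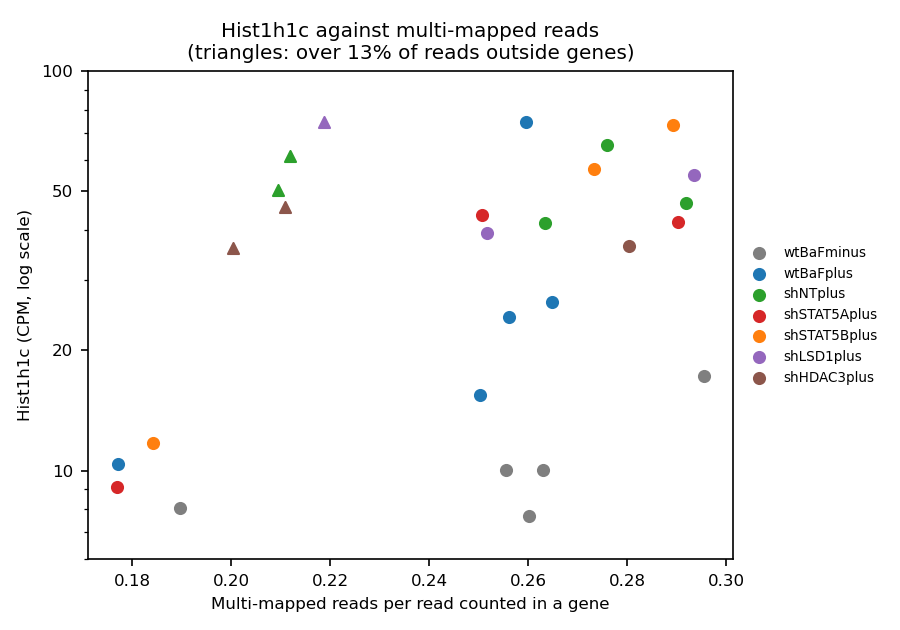
Each point is a library: the level of Hist1h1c (CPM, log scale) against the number of multi-mapped reads per read counted in a gene, coloured by group, with triangles for the 5 libraries with over 13% of reads outside genes. The 4 points at the lower left (8.05 to 11.7 CPM) come from 4 different groups, and 4 of the 5 wtBaFminus points are at 7.70 to 10.0 CPM.

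Genes that work with the clustered histones gave few calls. Of 11 replication-independent and variant histone genes, 10 were tested and none passed in any of the 8 comparisons by edgeR. The most abundant were H1f0, the H2A.Z gene H2afz (374.9 to 1390 CPM) and the H3.3 gene H3f3b. None of the 16 genes of histone transcription, 3′ end cutting and decay passed either, nor did any of the 17 histone chaperones, among which Nap1l1, Ssrp1 and Rbbp4 had the highest levels. Slbp, named after its values were seen, ranged from 76.7 to 191.0 CPM. Of 27 genes of DNA replication and S phase, led in level by the helicase subunit genes Mcm6, Mcm5 and Mcm3, 1 was called in 1 comparison. That was Uhrf1, which binds hemimethylated DNA, at 206.0 to 275.7 CPM in shLSD1plus and 372.6 to 442.5 in shHDAC3plus (log2 difference −0.70 ± 0.17, adjusted p = 0.0478, edgeR). In shHDAC3plus against shNTplus, 26 of these 27 genes had a positive log2 fold change, with a median of 0.21, beside 0.00 over all genes. After IL3, 6 of the 27 were positive, and 6 in shNTplus over wtBaFplus. Over shNTplus, 9 were positive with STAT5A, 8 with STAT5B and 7 with LSD1 knockdown. The summed level of the 27 genes was 5458 to 7214 CPM in shHDAC3plus, highest in replicate 3, and 4465 to 6066 in shNTplus, so the groups overlapped.

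RNAs known to lack a poly(A) tail were read alongside, as background for the selection of polyA RNA. Whether the reads counted in their genes came from untailed RNA was not tested. Of 122 such genes in the tables, nearly all for small nucleolar RNAs, 66 were tested. After IL3, 12 of them were called higher in wtBaFplus than in wtBaFminus and 0 lower, against 3% and 0.82% of all genes. The 4 with the smallest adjusted p were Snora41 (1.83 ± 0.31, adjusted p = 0.000418), Snord57 (2.47 ± 0.46, 0.0015), Snord69 (2.25 ± 0.43, 0.00178) and Snora31 (1.78 ± 0.40, 0.0079), on the log2 scale by edgeR. Snora31 stood at 0.63 to 3.52 CPM without IL3 and 5.70 to 11.6 with it. The sum over the list was 90.9 to 160.6 CPM in wtBaFminus and 155.7 to 176.1 in wtBaFplus. The histone sum without Hist1h1c and Hist2h2be was 27.3 to 67.4 and 25.9 to 36.4 CPM in the same groups. In the other 7 comparisons, none of the 66 passed.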

How the data were processed

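Gene counts of 27 polyA RNA libraries were used as the authors deposited them, 1 table per library with raw whole-number counts per gene symbol and 5 summary lines that entered neither library sizes nor tests. Per the submitters' processing notes, the tools were TopHat2 2.0.10, DESeq2 1.2, Trimmomatic 0.30 and HTSeq 0.5.4p5, with build mm10. The order of the steps, the annotation, the strand setting and the treatment of multi-mapped reads are not given in the sources used here, so reads of overlapping or near-identical genes cannot be assigned with certainty.

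All libraries entered 1 edgeR quasi-likelihood fit (R 4.3.3, edgeR 4.0.16, limma 3.58.1, robust option) with TMM factors, the filterByExpr filter (12073 genes) and a mean per group. In 8 comparisons, a gene was called below 0.05 after Benjamini-Hochberg adjustment across every gene in the fit. CPM values were scaled by the TMM factors. The SE was taken as the absolute log2 fold change over the root of F. Sums over the histone genes carry no test. The fit was tested on simulated data. DESeq2 1.42.0 was an alternative. Stem-loops and 3′ ends came from GENCODE vM21 transcripts, and promoters from RefSeq.

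The genes and lists were chosen with earlier results of these data known. Histone genes with 10 or more reads in at least 3 libraries could be named, with library values for the 12 of highest mean and any called. Other genes were the 4 targets, and called genes and the 3 of highest mean in each list. Of 4 marker lists, the T cell markers summed to 3.29 to 15.2 CPM and the myeloid markers to 51.4 to 546.2 CPM, with Cd14 called in shSTAT5Aplus and Lyz2 in shSTAT5Bplus.

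Replicate numbers were taken to pair the wild-type libraries, whose deviations from the group means correlated in 5 of 5 pairs (r from 0.375 to 0.716). In no other comparison did every pair exceed 0.1. In 42 pairs of replicates, counts differed with a chi-square of 10.4 to 164 per degree of freedom, so no library was a copy of another. A count of 0 was given the limit of 3 counts. Intervals and limits cover counting error only, since PCR copies were not told apart.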

Additional observations from a re-analysis of the deposited data

Results flagged for a closer look

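Within groups of 5 libraries, 78 sets of values were examined for a library far from the other 4, and 13 stood apart. Chance alone would give about 1 in 20 if the sets were independent. They are not, since the sums contain the single genes and all genes share the same libraries. The number that chance would give here is thus not known.

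Of these, 7 were wtBaFminus replicate 3. Its sum over all 68 histone genes was 118.8 CPM against 61.67 to 74.56 in the other 4 libraries, and 67.39 CPM against 27.29 to 32.8 without Hist1h1c and Hist2h2be. Hist1h1c stood there at 17.27 CPM (others 7.701 to 10.02), Hist1h2bc at 6.387 (1.787 to 2.523) and Hist1h1d at 2.003 (0.5761 to 0.7709). Hist2h2bb stood at 3.843 CPM (0.4814 to 0.6081) and Hist1h1a at 1.353 (0.4312 to 0.6876).

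In wtBaFplus replicate 1, the sum over all histone genes was 144.3 CPM against 63.65 to 84.62 in the others, Hist1h1c was 74.53 CPM (10.37 to 26.37) and Hist3h2a 5.273 (2.06 to 2.562). In wtBaFplus replicate 4, Hist1h4d was 1.164 CPM (0.5036 to 0.581) and Hist1h2bk 0.7763 (0.1956 to 0.3134). In shNTplus replicate 3, Hist1h1d was 7.477 CPM against 2.432 to 3.45.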

How the results depend on the processing

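For IL3 against deprivation, the number of histone genes called was 0 and became 1 by DESeq2, 2 with the replicate block, 1 without the 4 libraries with few multi-mapped reads and 1 in the 18 libraries outside both unusual classes. The last 2 settings were chosen after seeing the data. Leaving out single libraries gave 0 to 1 (1 without wtBaFplus replicate 2). For shNTplus against wtBaFplus it was 0 and became 1 by DESeq2 and 1 with only the 2 groups fitted. Of 136 alternatives over the 8 comparisons, 129 left the count as it was. The summed log2 ratio of shNTplus over wtBaFplus was 0.52 (0.43 to 0.78 over single libraries left out) and −0.047 without Hist1h1c and Hist2h2be, a setting added after seeing the data. Of the single genes named, 2 reversed: Hist2h2bb after IL3 was −1.24 to 0.092 over single libraries left out (0.092 without wtBaFminus replicate 3), and Hist1h2ag with the LSD1 hairpin −0.77 to 1.74 (−0.77 without shLSD1plus replicate 3). For all of these, the cause was not tested. With the replicate block, shNTplus against wtBaFplus gave 0 calls, where the fit of the same 2 groups without it gave 1 (Hist1h2ag). In the other 6 comparisons it gave 0 calls, as did the fit without it. When the 5 libraries rich in reads outside genes are dropped, shHDAC3plus keeps 1 library, which is then assumed to vary like the others. A gene near the limit of 3 counts, 0.0889 to 0.528 CPM, could not be told from absent.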
